A study of Mus musculus with 2 samples.

Results

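Immunoglobulin heavy chain V segments (Ighv genes) were examined in RNA of the adult mouse duodenum. Members were taken as every gene row whose identifier maps to a symbol starting with Ighv in GENCODE M21, which gave 175 of 43346 gene rows. Of these, 113 are annotated as V genes, 60 as V pseudogenes and 2 as genes of the type IG_LV_gene. GENCODE M21 holds 185 Ighv genes, and the 10 without a row were not analysed here. The study has 1 group of 2 libraries: duodenum of C57BL/6J mice, adult, aged 8 weeks, male and female littermates pooled, with no treatment and no altered allele named. The libraries are named replicate 1 and replicate 2 by the number that each label gives. They carry different tissue sample entries and the same donor entry, so nothing says that they came from separate animals. The p-values of the main test set these libraries against counting noise alone and hold no measure of spread between animals. The difference between the libraries may be technical in part.

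An antibody heavy chain gene is put together in a developing B cell from 1 V segment, 1 D segment and 1 J segment, which are then transcribed as a single RNA with a constant region. The V segment encodes most of the variable domain, including the loops CDR1 and CDR2, and V segments are sorted into families by sequence likeness. In the small intestine most antibody RNA comes from plasma cells of the lamina propria that make IgA, whose constant region is encoded by Igha. Each such cell uses 1 productive V segment, so V segment RNA in bulk tissue reflects both which segments the cells use and how much antibody RNA each cell holds. Fewer cells of a type and less RNA per cell cannot be told apart in bulk samples.

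The 175 segments lie on chromosome 12 (mm10, 113572927 to 116000461), between 150.2 and 2577 kb from Ighm. There, 173 are on the minus strand, and the 2 IG_LV_gene rows, on the plus strand, had no count in either library. Sequences below are from the GENCODE M21 transcripts and end at the 3′ end of the segment, where it joins D. They are reference sequences, not sequences read from these libraries, and the last 294 bases of each segment are shown or compared.

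Ighv1-34 and Ighv1-18 are shown because they are close in sequence and differed most in opposite directions among the 12 most abundant members. Ighv1-34 (chr12:114851190-114851660, minus strand) led replicate 2 and Ighv1-18 (chr12:114682632-114683065, minus strand) was the second most abundant in replicate 1. Capitals mark the 12 bases at which they differ.
Ighv1-34: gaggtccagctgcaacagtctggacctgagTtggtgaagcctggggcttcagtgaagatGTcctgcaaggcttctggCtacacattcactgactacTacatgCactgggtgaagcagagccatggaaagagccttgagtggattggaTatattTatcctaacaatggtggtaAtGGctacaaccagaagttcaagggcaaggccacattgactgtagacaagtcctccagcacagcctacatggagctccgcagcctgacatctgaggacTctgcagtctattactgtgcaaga
Ighv1-18: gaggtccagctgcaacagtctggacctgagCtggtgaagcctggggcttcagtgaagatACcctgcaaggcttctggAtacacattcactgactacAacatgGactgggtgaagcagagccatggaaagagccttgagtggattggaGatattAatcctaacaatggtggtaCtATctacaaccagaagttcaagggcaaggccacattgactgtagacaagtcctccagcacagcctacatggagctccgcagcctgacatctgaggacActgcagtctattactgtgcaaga
The 294 bases were 95.9% identical. The next 4 sequences are Ighv1-55 (chr12:115208095-115208591), the most abundant member of replicate 1, Ighv2-5 (chr12:113685482-113686045) and Ighv3-3 (chr12:114196439-114196875), the leading members of families Ighv2 and Ighv3 by mean TPM, and Ighv3-2 (chr12:114033803-114034233), the leading pseudogene. All 4 are on the minus strand. Capitals mark the motif TANTNCTGT near the 3′ end, which in the V genes Ighv1-55, Ighv2-5 and Ighv3-3 spells Tyr, Tyr and Cys. The Cys is the conserved residue at the end of the last framework region, just before the loop CDR3. In the pseudogene Ighv3-2 the capitals mark the bases of the motif only, not codons in its reading frame.
Ighv1-55: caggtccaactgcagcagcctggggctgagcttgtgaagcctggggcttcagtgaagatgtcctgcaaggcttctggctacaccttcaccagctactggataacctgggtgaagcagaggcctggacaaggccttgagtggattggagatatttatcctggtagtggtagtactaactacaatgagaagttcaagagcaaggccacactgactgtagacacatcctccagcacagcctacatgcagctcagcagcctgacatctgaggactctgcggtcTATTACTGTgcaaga
Ighv2-5: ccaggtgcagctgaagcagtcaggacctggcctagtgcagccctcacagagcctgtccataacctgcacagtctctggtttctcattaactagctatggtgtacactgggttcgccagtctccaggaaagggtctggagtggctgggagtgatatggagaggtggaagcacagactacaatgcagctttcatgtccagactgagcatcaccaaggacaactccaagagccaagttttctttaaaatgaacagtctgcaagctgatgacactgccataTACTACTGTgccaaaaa
Ighv3-3: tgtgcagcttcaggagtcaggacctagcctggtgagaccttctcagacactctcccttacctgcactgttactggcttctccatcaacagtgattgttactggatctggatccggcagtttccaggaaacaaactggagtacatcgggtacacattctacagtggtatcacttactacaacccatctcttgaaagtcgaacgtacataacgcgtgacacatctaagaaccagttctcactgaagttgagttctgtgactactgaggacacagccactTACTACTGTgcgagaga
Ighv3-2: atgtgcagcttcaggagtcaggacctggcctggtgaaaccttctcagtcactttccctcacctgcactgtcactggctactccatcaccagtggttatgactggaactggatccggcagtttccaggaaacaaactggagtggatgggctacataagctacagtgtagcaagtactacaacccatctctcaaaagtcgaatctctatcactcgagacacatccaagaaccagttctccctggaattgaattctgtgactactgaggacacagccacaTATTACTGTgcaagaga
The motif, searched on the coding strand only in the last 30 bases, was present in 100 of 113 V genes (88.5%) and in 27 of 60 pseudogenes (45%). It was present in 54 of the 58 members that reached a TPM of 1 in both libraries (93.1%) and in 0.388% of all 141767 GENCODE M21 transcripts. Ighv1-34 shared 86.7% of bases with Ighv1-55 and 58.8% with either Ighv2-5 or Ighv3-3. Over all members the identity to the nearest other member had a median of 93.5%, and 67 members had a neighbour at 95% or more. Ighv1-62-2 and Ighv1-71 were identical over these bases. Ighv1-62-2 was given 33.0 and 137.0 counts, with a deposited posterior SD of 0.17 and 0.82, and Ighv1-71 was given 0 in both libraries.

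Ighv RNA summed to 2384 TPM in replicate 1 and 4505 TPM in replicate 2 (3445 ± 1500 TPM, SD, n = 2). TPM is a level scaled to effective length, and V segments are short, with a median length of 351 bases and a median effective length of 163 bases in replicate 1 and 138 in replicate 2. In counts, which are not scaled for length, the sum was 17840 and 29426, or 0.0403% and 0.0658% of all gene counts. Scaled to TMM library sizes, the sum was 1.92-fold higher in replicate 2, and 1.28-fold higher without Ighv1-34. The single segment Ighv1-34 therefore carried most of the difference in the sum.

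A count above 0 was found for 93 members in replicate 1, 80 in replicate 2 and 77 in both. A count in 1 library only was found for 16 members in replicate 1 and 3 in replicate 2, and 79 members were at 0 in both. Those 79 were 24 V genes, 53 pseudogenes and the 2 IG_LV_gene rows. At or above 1 TPM there were 74, 65 and 58 members in replicate 1, replicate 2 and both, and at or above 100 TPM there were 8, 7 and 2. The 2 segments above 100 TPM in both libraries were Ighv1-55 and Ighv1-59.

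Ighv1-34 was at 13.9 TPM (113.64 counts) in replicate 1 and at 1440 TPM (9969.93 counts) in replicate 2. It ranked 39 among members in replicate 1 and 1 in replicate 2, and its scaled count was 102-fold higher in replicate 2 (95% interval 84.8 to 124, exact Clopper-Pearson, counting error only). Ighv1-55 was at 239 and 731 TPM, ranking 1 and 2, and was 3.07-fold higher in replicate 2 (2.92 to 3.22). Ighv1-55 was thus the only member among the 2 most abundant of each library. Ighv1-59 was at 116 and 276.8 TPM, 2.28-fold higher in replicate 2 (2.09 to 2.49). Ighv1-7 was at 69.1 and 224 TPM, 3.20-fold higher in replicate 2 (2.91 to 3.53). Ighv1-53 was at 79.7 and 158 TPM, a 1.89-fold difference (1.70 to 2.11) under the 2-fold limit used for a call. All 5 segments belong to family Ighv1 and had their higher value in replicate 2.

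Of the other Ighv1 members among the 12 most abundant, Ighv1-52 was at 22.8 and 183 TPM, 7.68-fold higher in replicate 2, and Ighv1-64 at 58.6 and 134 TPM, 2.18-fold higher in replicate 2. Ighv1-52 is 98.6% identical to Ighv1-61, which was at 14.1 and 14.96 TPM and was not called. Ighv1-18 ran the other way, at 225 TPM (1499.45 counts) in replicate 1 and 11.9 TPM (65.0 counts) in replicate 2, 19.8-fold higher in replicate 1. Ighv1-72 was at 135 and 77.9 TPM, 1.81-fold higher in replicate 1 and not called. With total gene counts or spike-in totals in place of TMM, Ighv1-59 and Ighv1-64 were no longer called and Ighv1-72 was called. Family Ighv1 thus held segments far higher in either library, also between near neighbours in sequence such as Ighv1-34 and Ighv1-18.

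The 3 Ighv2 segments among the 12 most abundant were higher in replicate 1. Ighv2-5 was at 152 and 22.3 TPM, 6.61-fold higher in replicate 1. Ighv2-9 was at 145 and 12.9 TPM, 11.6-fold higher in replicate 1. Ighv2-2 was at 117 and 54.5 TPM, 2.24-fold higher in replicate 1. In replicate 2 all 3 lay below each Ighv1 segment among the 12 most abundant except Ighv1-18.

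**Figure D1:**
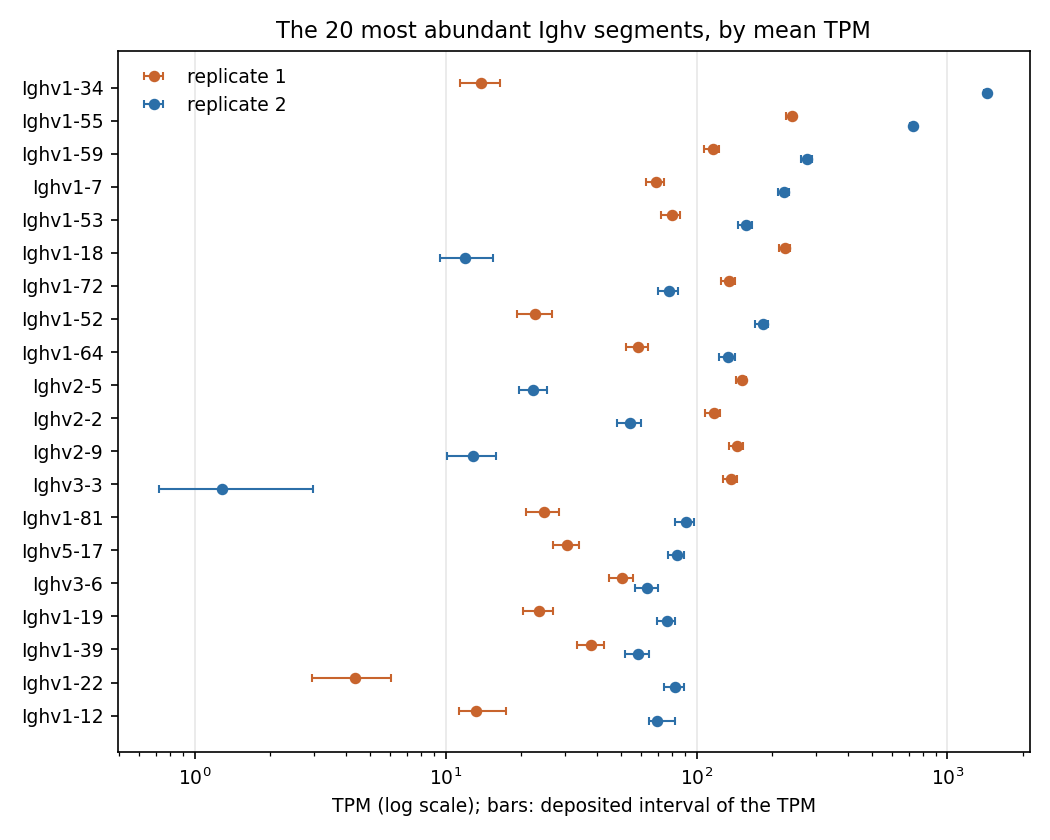
TPM on a log scale of the 20 Ighv segments with the highest mean TPM, with replicate 1 in orange and replicate 2 in blue, where bars are the interval deposited with each TPM. Ighv1-34 lies at 13.9 TPM in replicate 1 and 1440 in replicate 2, and Ighv3-3 at 137 in replicate 1 and 1.29 in replicate 2.

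The comparison asked how far 2 libraries labelled as biological replicates of duodenum differ in V segment RNA. These libraries also differed in pancreas and stomach genes, as given below. Each gene with a mean count of at least 10 was put to an exact two-sided binomial test on TMM-scaled libraries, with Benjamini-Hochberg adjustment over 15921 genes. It was called where the adjusted p was under 0.05 and the ratio at least 2-fold. Of the 175 members 68 passed the filter, 65 V genes and 3 pseudogenes. Of these 68, 27 were called higher in replicate 1, against 14.5% of all genes tested, and 25 were called higher in replicate 2, against 11.4% of all genes tested. Calls thus took 39.7% and 36.8% of the tested members, and 16 members were not called. Of the 68, 13 had under 10 counts in 1 library and passed the filter through the other, so that they had to differ, and all 13 were called. Among the 55 members with at least 10 counts in each library, 17 were called higher in replicate 1 and 22 in replicate 2, against 11.6% and 10.7% of all genes held to the same rule. Of these 55, 3 differed by more than 10-fold toward replicate 1 and 2 toward replicate 2, against 0.726% and 0.376% of genes. The deposited TPM intervals did not overlap between the libraries for 45 of the 55, against 61.6% of genes.

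The median log2 ratio, replicate 2 over replicate 1 on the log2(CPM + 0.5) scale, was -0.09 over the 68 tested members and -0.04 over all genes tested. Over the 55 members with at least 10 counts in each library it was 0.08, and the median size of the ratio without its sign was 1.17. Over all genes held to the same rule these values were -0.01 and 0.45. Across the 81 members at or above 1 TPM in either library, log2(TPM + 1) had a Pearson correlation of 0.542 between the libraries and a Spearman correlation of 0.543. Over 13084 genes chosen in the same way the values were 0.904 and 0.898. These are descriptions across genes, which are not independent replicates. The test assumes that only counting noise separates the libraries. With edgeR's exact test and an assumed biological coefficient of variation of 0.4, 12 members were called higher in replicate 1 and 5 in replicate 2, against 2.59% and 1.04% of all genes. These counts are over the 68 members, so they include some that passed the filter through 1 library only. Ighv3-3, Ighv3-2, Ighv5-12, Ighv1-14 and Ighv1-25, called toward replicate 1, and Ighv2-9-1, called toward replicate 2, were such members. The 55 members were not counted apart with this test.

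**Figure D2:**
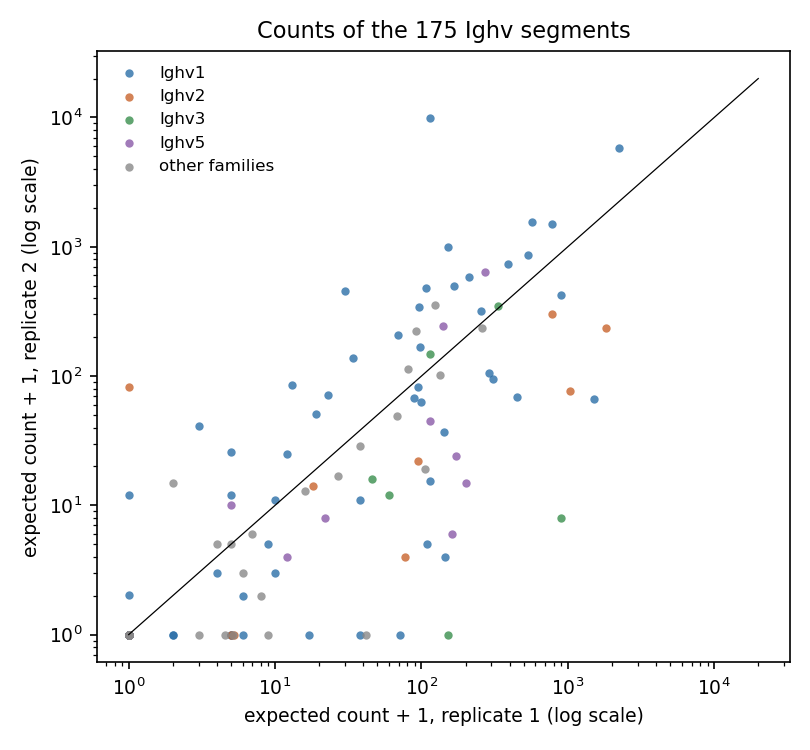
Expected count plus 1 of each of the 175 Ighv segments in replicate 1 (x, log scale) and replicate 2 (y, log scale), coloured by family, with the line of equal counts. Ighv1-34 is the point at the top, at 113.64 and 9969.93 counts, and segments of families Ighv2 and Ighv3 lie mostly below the line.

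On the log2(CPM + 0.5) scale, the members called with the largest log2 ratios toward replicate 1 were Ighv3-3, Ighv1-18, Ighv2-9, Ighv3-2 and Ighv5-12. That scale shrinks ratios of low counts, so some members not listed had larger folds by scaled counts. Among them were Ighv1-4, 40.9-fold higher in replicate 1, and Ighv1-75, 23.3-fold higher in replicate 2. Ighv3-3 had 900.0 counts in replicate 1 and 7 in replicate 2, which is 137 and 1.29 TPM and 110-fold higher in replicate 1 (53.3 to 275). Ighv5-12 had 160.93 and 5 counts, or 23.9 and 0.90 TPM, 27.6-fold higher in replicate 1. Toward replicate 2 the members called with the largest log2 ratios were Ighv1-34, Ighv1-22, Ighv1-52, Ighv2-9-1 and Ighv1-12. Ighv1-22, at 96.6% the nearest neighbour of Ighv1-34 in sequence, had 29.07 and 450.0 counts, 18.1-fold higher in replicate 2. Ighv2-9-1 had no count in replicate 1 and 81 in replicate 2, a difference of at least 31.5-fold with the floor of 3 counts that a count of 0 allows in a library. Ighv1-12 was at 13.2 and 69.8 TPM, 5.21-fold higher in replicate 2. The deposited posterior SD of the counts was at most 4.46% of the count in replicate 1 and 6.86% in replicate 2 for members with at least 10 counts. That SD is the authors' measure of how reads shared between genes were assigned.

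By family the libraries also differed. Family Ighv1, the largest with 86 rows, held 59.4% of Ighv TPM in replicate 1 and 87.5% in replicate 2 (73.4% ± 19.9, SD, n = 2), and 59.1% and 81.6% without Ighv1-34. Its 37 tested members split into 11 called for replicate 1, 20 called for replicate 2 and 6 without a call, beside the 14.5% and 11.4% of all genes called in each direction. The same percentages stand behind the counts of the other families. With total gene counts or spike-in totals in place of TMM the numbers for family Ighv1 were 12, 16 and 9. The family tallies include the 13 members with under 10 counts in 1 library, which had to differ. In family Ighv1 these were Ighv1-4, Ighv1-14, Ighv1-25 and Ighv1-63 toward replicate 1, and Ighv1-58 and Ighv1-75 toward replicate 2. Family Ighv2 held 18.6% and 2.43%, and of its 7 tested members 5 were called higher in replicate 1 and 1, Ighv2-9-1, in replicate 2. Ighv2-6, called toward replicate 1, and Ighv2-9-1 were among those 13. Family Ighv3 held 10.2% and 2.14%, with 4 of 6 tested members called higher in replicate 1 and none in replicate 2. Of those called, Ighv3-2 and Ighv3-3 were among the 13. The counts of family Ighv3 were 1602 and 525.

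Family Ighv5 held 5.53% and 3.18%, with 5 of 7 tested members called higher in replicate 1 and 2 in replicate 2. Of those called toward replicate 1, Ighv5-12 and Ighv5-15 had under 10 counts in replicate 2 and had to differ. The most abundant segment of family Ighv5, Ighv5-17, was called toward replicate 2, at 30.6 and 83.8 TPM, 2.74-fold higher. Family Ighv14 held 3.22% and 1.40%, with 1 of 4 tested members called higher in replicate 1 and 3 not called. Its leading segment, Ighv14-3, was at 30.02 and 31.9 TPM, with a log2 ratio of 0.08 that turned to -0.14 with total gene counts and -0.15 with spike-in totals. Family Ighv8 held 1.94% and 2.60%, led by Ighv8-8 at 17.8 and 61.9 TPM, 3.37-fold higher in replicate 2.

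The remaining families were small in both libraries. Family Ighv9 held 0.634% and 0.480%, led by Ighv9-3 at 11.99 and 20.5 TPM, which was not called. Family Ighv7, led by Ighv7-3 at 5.23 and 4.78 TPM, held 0.225% and 0.158%. Ighv4-1 was at 2.82 and 2.01 TPM and Ighv10-1 at 2.15 and 2.08 TPM, and neither was called. Ighv6-3, at 5 and 2 counts, and Ighv11-2, at 4 counts in each library, did not pass the filter. Families Ighv12, Ighv13, Ighv15 and Ighv16, with 8 rows in all, had no count in either library. A count of 0 in a library allows up to 3 counts, or 0.0168% of Ighv counts in replicate 1 and 0.0102% in replicate 2.

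**Figure D3:**
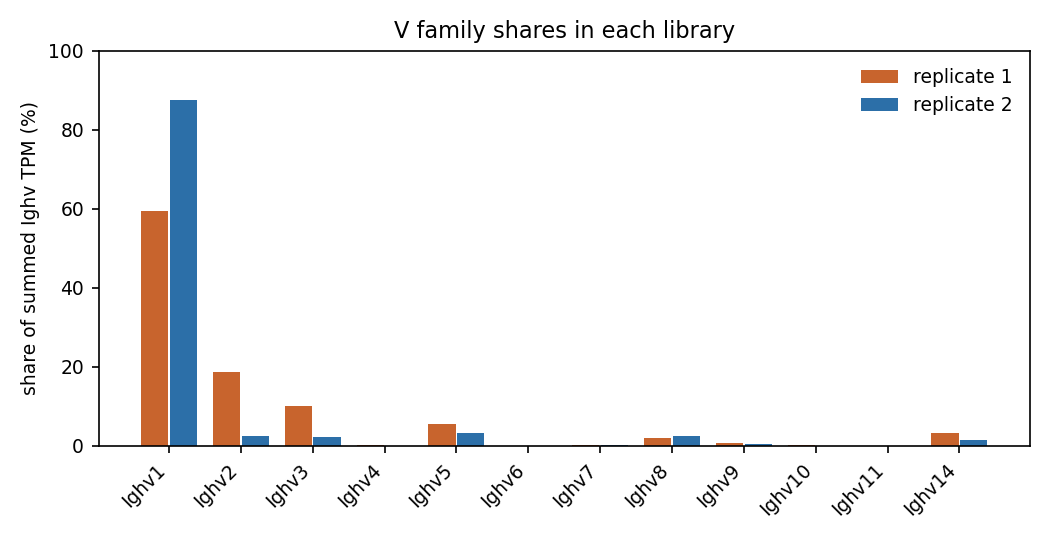
Share of the summed Ighv TPM (%) held by each V family with a count, in replicate 1 (orange) and replicate 2 (blue). Family Ighv1 holds 59.4% and 87.5%, family Ighv2 18.6% and 2.43%, and family Ighv3 10.2% and 2.14%.

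Ighv RNA was more concentrated in replicate 2. The most abundant segment held 10.04% of Ighv TPM in replicate 1 (Ighv1-55) and 32.0% in replicate 2 (Ighv1-34), and the 10 most abundant held 59.3% and 75.5% (67.4% ± 11.5, SD, n = 2). Reaching 50% of Ighv TPM took 8 segments in replicate 1 and 3 in replicate 2. The inverse Simpson index, the number of equally abundant segments that would give the same concentration, was 22.3 in replicate 1 and 7.04 in replicate 2, and 22.1 and 11.6 without Ighv1-34. The lists of the 10 most abundant segments shared 4 names, Ighv1-55, Ighv1-59, Ighv1-53 and Ighv1-7, and the lists of 20 shared 11. Summed over segments, the smaller of the 2 shares came to 46.0%, where identical make-up would give 100%.

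**Figure D4:**
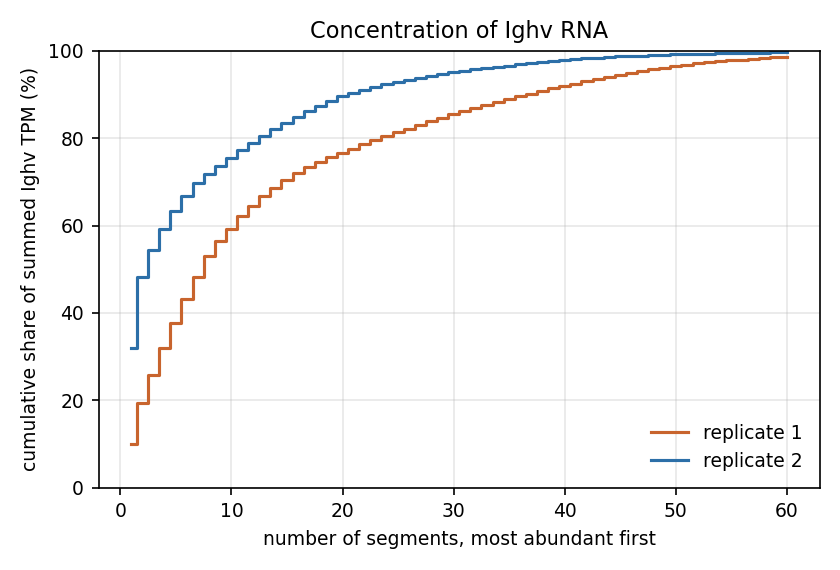
Cumulative share of the summed Ighv TPM (%) against the number of segments taken, most abundant first, in replicate 1 (orange) and replicate 2 (blue). The 10 most abundant segments reach 59.3% in replicate 1 and 75.5% in replicate 2.

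Along the locus, V segments near the D and J segments belong mostly to families Ighv2 and Ighv5, and family Ighv1 takes up most of the far part. Calls in each stretch are read beside the 14.5% and 11.4% of all genes called toward replicate 1 and replicate 2. They include members with under 10 counts in 1 library, which had to differ. Under 500 kb these were Ighv2-6, Ighv5-12 and Ighv5-15 toward replicate 1 and Ighv2-9-1 toward replicate 2. From 500 to 1000 kb they were Ighv3-2 and Ighv3-3 toward replicate 1. From 1000 to 1500 kb they were Ighv1-4, Ighv1-14 and Ighv1-25 toward replicate 1. From 1500 to 2000 kb they were Ighv8-4 toward replicate 1 and Ighv1-58 toward replicate 2. Beyond 2000 kb they were Ighv1-63 toward replicate 1 and Ighv1-75 toward replicate 2. The 35 segments under 500 kb from Ighm held 24.1% of Ighv TPM in replicate 1 and 5.67% in replicate 2, and 10 of their 14 tested members were called higher in replicate 1 and 3 in replicate 2. Without Ighv1-34 in the total the shares were 24.3% and 8.33%. The 36 segments from 500 to 1000 kb held 14.5% and 4.18%, with 5 of 13 called higher in replicate 1 and none in replicate 2. The 50 segments from 1000 to 1500 kb, which include Ighv1-34, held 25.1% and 46.3%, or 24.6% and 21.1% without it. Their 15 tested members were split, with 7 called higher in replicate 1 and 6 in replicate 2. The 30 segments from 1500 to 2000 kb, which include Ighv1-55, held 22.3% and 32.3%. Of their 11 tested members 2 were called higher in replicate 1 and 5 in replicate 2. Of the 15 tested members beyond 2000 kb, 3 were called higher in replicate 1 and 11 in replicate 2, at shares of 14.1% and 11.5%. Position and family cannot be told apart here, since the families sit in blocks.

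**Figure D5:**
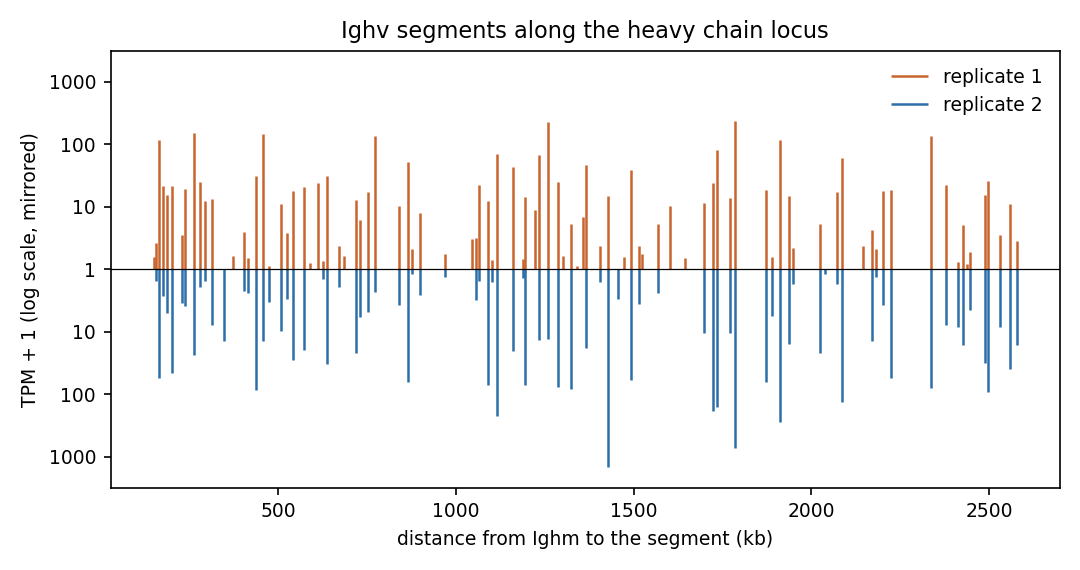
TPM plus 1 of each Ighv segment (log scale), upward for replicate 1 (orange) and downward for replicate 2 (blue), against its distance from Ighm in kb. The segments under 500 kb hold 24.1% of Ighv TPM in replicate 1 and 5.67% in replicate 2, and the longest line, at 1428 kb in replicate 2, is Ighv1-34.

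Pseudogene rows held 287.56 counts in replicate 1 and 4.03 in replicate 2, or 1.61% and 0.0137% of Ighv counts. In replicate 1, 5 pseudogenes were at or above 1 TPM, and in replicate 2 none was. The leading one, Ighv3-2, had 150.56 counts (22.9 TPM) in replicate 1 and 0 in replicate 2, a difference of at least 43.1-fold. For Ighv1-14 the counts were 70 and 0, and for Ighv1-25 they were 37 and 0, a difference of at least 10.6-fold. All 3 were thus found in replicate 1 only. Ighv3-2 carries the 3′ motif shown above and was 92.5% identical to the V gene Ighv3-6 and 86.1% to Ighv3-3.

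The RNA of the constant regions was set beside that of the V segments. Igha, the constant region of IgA, was at 15723 TPM in replicate 1 and 16968 in replicate 2 and was not called (1.18-fold higher in replicate 2). It held 99.5% and 99.4% of the counts of the heavy chain constant regions listed. Ighm, of IgM, was at 22.2 and 37.9 TPM, 1.96-fold higher in replicate 2, which was not called with TMM and was called with DESeq2 size factors. Ighd, of IgD, which marks naive B cells, was at 0.26 and 2.77 TPM, 14.1-fold higher in replicate 2 (8.00 to 27.1). Among the IgG genes, Ighg2c at 0.16 and 1.71 TPM was 11.9-fold higher in replicate 2 and Ighg3 at 0.63 and 1.60 TPM was 2.79-fold higher in replicate 2. Of 7 tested heavy constant genes Ighd, Ighg2c and Ighg3 were called, beside 14.5% and 11.4% of all genes. Ighg2c had 6.01 and 61 counts and passed the filter through replicate 2 only, so it had to differ. Ighg1 at 25.1 and 11.5 TPM and Ighg2b at 15.8 and 23.6 TPM were not called, although Ighg1, at 1.98-fold, passed the 2-fold limit with total gene counts or spike-in totals. Ighe, of IgE, had no count. Ighj1, Ighj2, Ighj3 and Ighj4 were listed at 0 with an effective length of 0, so the tables cannot give a level for them.

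Summed Ighv counts came to 3.03 per 100 Igha counts in replicate 1 and 4.93 in replicate 2, and to 3.01 and 3.26 without Ighv1-34. In TPM the sums were 15.2 and 26.6 per 100 Igha TPM. Shares of Ighv TPM in this report thus cover only RNA assigned to the Ighv rows. Why these sums lay below Igha was not tested. Light chain V segments were measured in the same tables. The 103 Igkv rows had 37576 and 30415 counts, or 93.5 and 66.9 per 100 counts of Igkc, the kappa constant region. Igkc itself was at 7291 and 10458 TPM and Iglc2 at 53.0 and 39.7 TPM, and neither was called. Of 69 tested Igkv segments 31 were called higher in replicate 1 and 15 in replicate 2, beside 14.5% and 11.4% of all genes. The median size of their log2 ratio was 1.09. These values include any segments that passed the filter through 1 library only, which were not counted apart. The 10 most abundant held 68.4% and 75.2% of Igkv TPM. The difference between the chains was not tested.

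Genes of the cells that make antibody were compared by list. Of 10 plasma cell genes none was called, beside 14.5% and 11.4% of all genes, with a median log2 ratio of 0.02. The ratios ran from -0.76 (Fkbp11) to 0.57 (Tnfrsf17). Bulk levels do not say which cells held these RNAs, so the median is no measure of plasma cell number. Jchain, which links IgA into dimers, was at 599 and 527 TPM and Mzb1, an endoplasmic reticulum protein of plasma cells, at 33.4 and 41.6 TPM. Of the 10, 8 had an adjusted p under 0.05 in the exact binomial test at less than 2-fold. By scaled counts the largest fold was 1.74, for Fkbp11, which was called higher in replicate 1 with total gene counts or spike-in totals. Of 11 tested B cell genes 7 were called higher in replicate 2 and none in replicate 1, beside the same percentages. Cd22, an inhibitory receptor of B cells, was at 0.69 and 3.16 TPM, and Pax5, which maintains B cell identity, at 0.11 and 2.26 TPM. With total gene counts or spike-in totals 5 of the 11 were called. The summed level of the 13 listed B cell genes was 62.7 and 97.4 TPM, and Fcer2a and Cr2 were at 0 in replicate 1. Their part in the V segment differences was not tested.

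Genes of V(D)J recombination were low, and Rag1, Rag2 and Dntt, which cut and extend the segments in developing lymphocytes, had no count in either library. Of the other 5, all tested, Xrcc5 was called higher in replicate 1, at 0.25 and 0.08 TPM, and so was Prkdc with total gene counts or spike-in totals. Of 4 tested germinal centre and diversification genes, Mki67 was called higher in replicate 1 and Fas in replicate 2. These counts of 1 gene in a direction lie near the 14.5% and 11.4% of all genes called. Of 9 genes of IgA transport and B cell survival, Itgb7, an integrin chain of gut homing, was called higher in replicate 2 at 6.29 and 12.5 TPM, a share near the 11.4% of all genes. Pigr, the receptor that carries IgA into the gut lumen, was at 1041 and 438 TPM, 1.55-fold by scaled counts and not called. With total gene counts or spike-in totals Itgb7 was no longer called and Ccl28 was called higher in replicate 1, and with DESeq2 size factors Ccr9 and Ccr10 were called higher in replicate 2.

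The libraries differed outside the antibody genes as well. Depth was 44977004 expected counts in replicate 1 and 45438504 in replicate 2, including spike-ins. Over all genes 14.5% were called higher in replicate 1 and 11.4% in replicate 2. Enterocyte genes were present in both libraries, and 6 of 9 were called higher in replicate 2 and 1, Alpi, in replicate 1. All 15 exocrine pancreas genes listed and all 10 stomach genes were called higher in replicate 1, with summed levels of 88707 and 1221 TPM and of 24926 and 89.9 TPM. Of 6 tested T cell genes 5 were called higher in replicate 2 (4 with total gene counts or spike-in totals), at a summed 11.3 and 27.5 TPM. The part of these in the Ighv differences was not tested. With TMM sizes computed without the pancreas and stomach genes, 27 and 25 Ighv members were called.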

How the data were processed

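Gene tables of 2 polyadenylated RNA-seq libraries were used, 1 group in all, so no test between conditions was possible. Per the labels, the RNA was depleted of ribosomal RNA and selected for poly(A) and for over 200 nucleotides, and the libraries are strand-specific pairs. Per the text files deposited beside the tables, the assembly was mm10 and the annotation GENCODE M4 with spike-ins added. For the aligner and the quantifier, names and versions were not given in the sources used. Expected counts, as deposited, estimate the fragments of each gene without normalisation, and the authors' quantifier split fragments shared between genes. TPM, as deposited, is scaled for effective length and sums to an equal total per library. The deposited FPKM values, scaled by the authors to length and fragments, served as an alternative only.

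Symbols, types and positions came from GENCODE M21 by gene identifier. Expected counts were rounded, scaled with TMM (edgeR 4.0.16, R 4.3.3) and compared per gene with an exact two-sided binomial test, as the report describes, in Python 3.11.15 with scipy 1.17.1 and statsmodels 0.14.6. edgeR's quasi-likelihood test has no contrast with 1 group. The test compares 2 libraries, not conditions. Folds have exact 95% Clopper-Pearson intervals, and against a count of 0 they are lower bounds from 3 counts (0.0678 CPM in replicate 1 and 0.0671 in replicate 2). These intervals and floors hold counting error alone, because reads without molecular identifiers are not independent molecules. The binomial test was run on simulated counts with known fold changes, counting noise only and scaling to library totals. That setting says nothing of TMM scaling or of spread beyond counting noise. V segments are short against the fragments, so their TPM depends strongly on the effective length.

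Named members are the 12 with the highest mean TPM, the leading member of each family, the 5 called with the largest log2 ratio in each direction, the 3 leading pseudogenes and the genes of the constant and joining lists. Ighv1-61, Ighv1-62-2, Ighv1-71 and Ighv3-6 were named after their values were seen. So were Ighv1-4, Ighv1-58, Ighv1-63, Ighv1-75, Ighv2-6, Ighv5-15 and Ighv8-4. Members, lists and tests were chosen with earlier results of these data known. Iglc1, Iglc3 and Trdc have no row and were not analysed here, and single values of some listed genes are not reported here. Alternatives were other library sizes (DESeq2 1.42.0 size factors, total gene counts, spike-in totals), filters, fold limits, pseudocounts and units, and edgeR's exact test.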

Additional observations from a re-analysis of the deposited data

How the results depend on the processing

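The numbers of Ighv members called, 27 and 25, stayed within 1.5 times under the other library sizes, without the count filter, with posterior mean counts and with a 1.5-fold limit. With edgeR's exact test and an assumed biological coefficient of variation of 0.4 they were 12 and 5, and Ighv1-12, Ighv1-55, Ighv1-59, Ighv1-64, Ighv1-7, Ighv2-2, Ighv2-5, Ighv5-17 and Ighv8-8 were among those no longer called. The counts 27 and 25 and the counts 12 and 5 include members that passed the filter through 1 library only. The median log2 ratio of the members, -0.09, was -0.21 with total gene counts and -0.21 with spike-in totals, where the median over all genes tested was -0.24. The log2 ratio of Ighv14-3, 0.08, was -0.14 with total gene counts and -0.15 with spike-in totals. Summed Ighv per Igha, 0.0398 in counts, was 0.209 in TPM. Over the other comparisons of the named members 223 kept direction and call, 13 lost the call and 5 gained it. Part of the 223 was fixed in advance. The pseudocount of 0.1 CPM could change no direction or call, and the 1.5-fold limit could only add calls. No paired analysis was possible because the study has 1 group. With 2 libraries, leaving one out gives the value of the other, as printed for each library. Depth limits what can be said of the 79 members at 0 in both libraries.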
